A study of Mus musculus with 12 samples.

Results

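Bach2, Bcl6, Irf8, Irf4, Prdm1, Xbp1 and Sdc1 were taken as the genes of the switch between the germinal center B cell and the plasma cell. They were listed by name, and every probe set that GEO's platform annotation pairs with one of these symbols alone was used. This gave 18 probe sets of 7 genes, of 45037 probe sets and 18193 genes on the array. BACH2, BCL6 and IRF8 are transcription factors of the germinal center state, and BACH2 and BCL6 repress Prdm1. Prdm1 encodes Blimp-1, the repressor that ends the B cell program. IRF4 acts with Blimp-1 in plasma cells, XBP1 drives the expansion of the secretory apparatus, and Sdc1 encodes syndecan-1 (CD138), a surface marker of plasma cells. BCL6 and Blimp-1 repress each other's genes, so that B cells tend to hold one state or the other.

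The cells were BL#19, a murine Burkitt lymphoma (BL) line whose Foxo1 alleles were edited with CRISPR/Cas9. Foxo1 encodes a forkhead factor that AKT phosphorylation removes from the nucleus, and 1 of its alleles in the line was wild type (wt), the other T24P (mt), which changes an AKT site. The 4 groups, with 3 arrays each, were wt-/mt- (both alleles knocked out), wt-/mt+ (T24P allele alone), wt+/mt- (wild-type allele alone) and wt+/mt+ (both alleles present). Separate cultures or clones are not named in the labels, and 1 field calls the samples germinal center B cells. P-values therefore describe array-to-array spread, possibly technical, and each genotype may be 1 clone. Single wt-/mt- arrays stood apart over whole chromosomes. On chromosome 12, the median log2 difference of 414 genes from the wt+/mt+ mean was -0.66, 0.03 and -0.04 on the 3 arrays. Whether the wt-/mt- arrays come from 1 clone was not tested.

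Values are log2 expression from RMA, so a difference of 1 is a factor of 2. Changes were tested with limma over all 45037 probe sets, with a call where the p after Benjamini-Hochberg adjustment was under 0.05. The leading probe set of a gene is the one with the highest mean over the 12 arrays. Arrays of 2 genotypes that do not overlap are common: by comparison, 9.05% to 20.6% of all probe sets lay higher without overlap, and 5.91% to 15.3% lower. Of the 7 B cell markers read, 7 of 7 lay above the array median on every array, with mean levels over the 7 of 11.12 to 11.91 in wt-/mt-, 11.53 to 11.83 in wt-/mt+, 11.81 to 11.91 in wt+/mt- and 11.74 to 11.90 in wt+/mt+. Of these 7 markers, 3 were called lower and 0 higher in wt-/mt- against wt+/mt+ (4.29% and 4.31% of leading probe sets of all genes), 1 lower and 1 higher against wt-/mt+, and 1 lower and 0 higher against wt+/mt-. The median SD of a probe set was 0.185 among wt-/mt- arrays, 0.108 among wt-/mt+ arrays, 0.131 among wt+/mt- arrays and 0.106 among wt+/mt+ arrays, and the fit gave each genotype its own weight for this reason. The leading Foxo1 probe set averaged 9.99 ± 0.52 for wt-/mt-, 11.46 ± 0.26 for wt-/mt+, 11.87 ± 0.26 for wt+/mt- and 11.64 ± 0.08 for wt+/mt+ (SD, n = 3 each). Foxo1 was thus lower but still read in wt-/mt-, and the probe sets do not separate the alleles, so they do not check the labels of the single losses. The actin 3′ to 5′ difference, a sign of RNA quality, reached 2.17 on wt+/mt- replicate 1 and 1.71 on wt+/mt- replicate 2, while the other arrays read 1.06 to 1.29. The hybridization spike-ins divided the arrays by the T24P allele: BioC read 10.53 to 11.06 on the 6 mt- arrays and 11.31 to 11.56 on the 6 mt+ arrays, BioDn 11.82 to 12.43 on the mt- and 12.85 to 13.07 on the mt+ arrays, and CreX 14.41 to 14.67 on the mt- and 14.85 to 14.96 on the mt+ arrays, while BioB overlapped. Technical handling and the T24P genotype therefore cannot be told apart in any comparison of an mt- with an mt+ genotype. Comparisons of wt-/mt- with wt+/mt-, and of wt-/mt+ with wt+/mt+, lie on 1 side of this division.

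In wt-/mt- against wt+/mt+, 3 of the 7 genes fell and 0 rose by their leading probe sets (4.29% and 4.31% of all genes). Bach2 was about 21.2-fold lower by its leading probe set (12.9-fold without wt-/mt- replicate 3), Xbp1 2.51-fold and Bcl6 1.62-fold. Neither Bcl6 probe set was called against wt+/mt- (limma adjusted p = 0.0869 and 0.116), on the same side of the spike-in division. The leading Bcl6 call against wt+/mt+ ended in 10 of 20 alternatives. Irf8, Irf4, Prdm1 and Sdc1 had no called probe set in any of the 6 pairwise comparisons. Calls among their probe sets appeared only in some alternatives, such as arrays centred per chromosome. In wt-/mt- against wt+/mt+, 9 of 18 probe sets were called, 9 lower and 0 higher, where 7.44% of all probe sets were called and 4.06% were called lower. These 9 were the probe sets of Bach2, Bcl6 and Xbp1, and those of 1 gene are repeated readings of it. With 1 probe set per gene, above the array median on at least 3 arrays, 2 of 6 were called, beside 866 of 11457 genes. The 7 genes were chosen with earlier results of these data known. Loss of the wild-type allele with T24P present (wt-/mt+ against wt+/mt+) gave 0 called of the 18 (limma), beside 0.0244% of all probe sets. An unadjusted p under 0.05 was found there for 4 of the 18 (22.2%) and for 9.86% of all probe sets. Against wt-/mt+, 9 of 18 were called in wt-/mt-, all lower (6.69% of all probe sets called, 4.06% lower), and against wt+/mt- 5 of 18, all lower (2.88% and 1.99%).

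**Figure D1:**
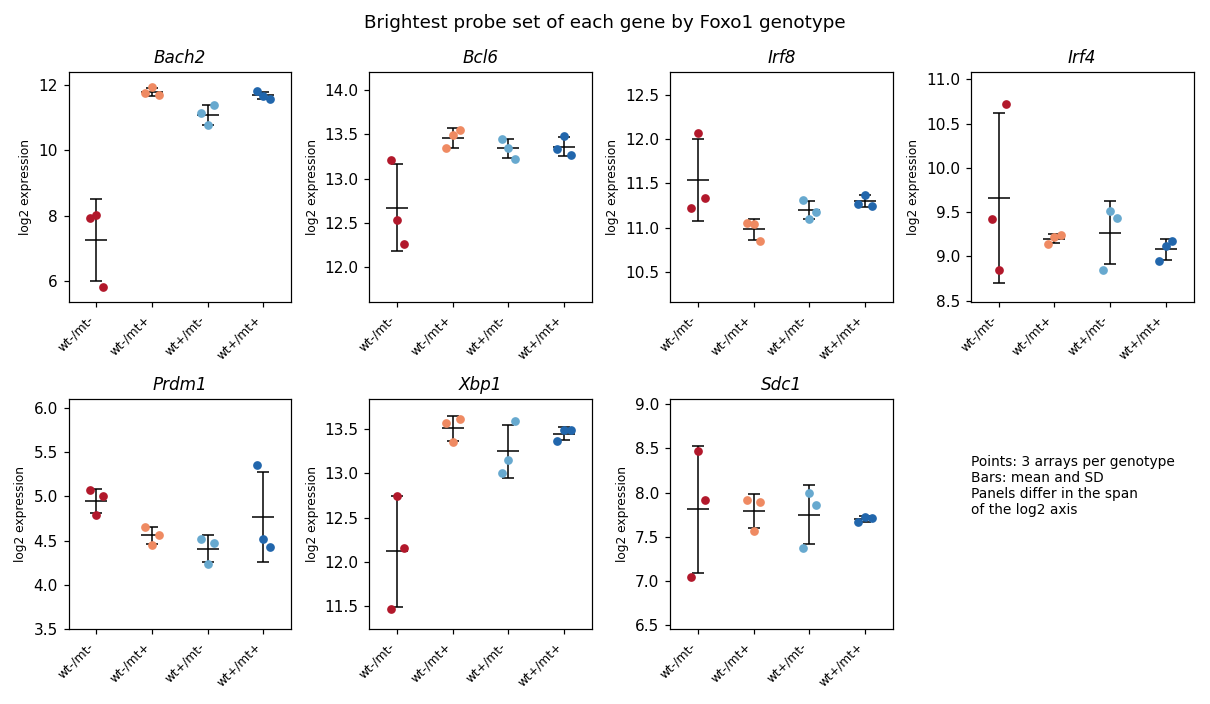
Log2 expression of the leading probe set of each gene (vertical axis) in the 4 Foxo1 genotypes, with a point for each of the 3 arrays and bars for the mean and SD. The wt-/mt- arrays of Bach2 lie between 5.83 and 8.03, below the lowest array of any other genotype (10.76), those of Xbp1 also lie below all others, and those of Prdm1 and Sdc1 overlap wt+/mt+.

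The promoters of the 3 genes that fell, and of Prdm1, are shown because they let the letters recognised by these factors be set beside the levels. RefSeq's promoter table (GRCm38.p6, 250 bases before to 50 after a start) held 9 promoters for the 7 genes. Searched on both strands were GTAAACA (FOXO), TGAGTCA (the core of the site bound by BACH with MAF), TTCCNNGAA (BCL6), GGAA and GAAA with any 2 bases between (ETS with IRF), GAAA and GAAA with any 2 bases between (IRF) and TGACGTGG (XBP1), and matches are in capitals. The IRF and ETS with IRF letters can overlap.
Bach2 chr4:32417185-32417484 (+): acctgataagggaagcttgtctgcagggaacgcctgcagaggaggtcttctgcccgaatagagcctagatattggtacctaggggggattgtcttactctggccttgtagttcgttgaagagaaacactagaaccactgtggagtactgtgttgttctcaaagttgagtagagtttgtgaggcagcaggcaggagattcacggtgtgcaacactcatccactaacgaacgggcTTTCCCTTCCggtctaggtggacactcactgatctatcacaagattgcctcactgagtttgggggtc
Bcl6 chr16:23981234-23981533 (-): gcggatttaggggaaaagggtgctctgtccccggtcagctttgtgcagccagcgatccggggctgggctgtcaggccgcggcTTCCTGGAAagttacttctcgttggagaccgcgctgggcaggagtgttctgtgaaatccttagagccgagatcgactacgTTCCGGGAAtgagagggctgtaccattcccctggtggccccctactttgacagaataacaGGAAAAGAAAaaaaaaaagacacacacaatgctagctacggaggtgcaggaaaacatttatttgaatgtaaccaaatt
Xbp1 chr11:5520391-5520690 (+): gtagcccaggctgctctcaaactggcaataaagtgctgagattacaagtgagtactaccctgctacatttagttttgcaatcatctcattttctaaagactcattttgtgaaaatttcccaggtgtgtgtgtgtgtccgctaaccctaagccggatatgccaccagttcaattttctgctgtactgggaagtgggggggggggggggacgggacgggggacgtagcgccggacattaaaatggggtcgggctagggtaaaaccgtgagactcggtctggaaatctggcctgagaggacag
Prdm1 chr10:44458699-44458998 (-): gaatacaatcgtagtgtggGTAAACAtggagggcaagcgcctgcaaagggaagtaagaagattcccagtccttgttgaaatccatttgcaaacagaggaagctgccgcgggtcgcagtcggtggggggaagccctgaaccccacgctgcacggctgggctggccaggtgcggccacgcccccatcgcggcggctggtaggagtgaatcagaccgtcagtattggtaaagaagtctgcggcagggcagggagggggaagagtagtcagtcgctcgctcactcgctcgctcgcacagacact

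The FOXO letters stood in 1 of the 9 promoters, that of Prdm1, 231 bases before the start, against 3.65% of all 32851 promoters. The Bach2 promoter held TTTCCCTTCC, the ETS with IRF letters read on the other strand, 17 bases before the start (2.72% of all promoters hold them on either strand). The Bach2 and Prdm1 promoters shown lie inside the annotated genes (chr4:32238413-32586109 and chr10:44437174-44528558). No promoter at the 5' end of either gene was in the set searched. The Bcl6 promoter shown held TTCCTGGAA 168 bases and TTCCGGGAA 88 bases before the start, both of which read as the BCL6 letters on either strand, and GGAAAAGAAA 28 bases before it. It lies inside the annotated gene (chr16:23965050-23988866). The other Bcl6 promoter, not shown (chr16:23988803-23989102), spans the 5' end of the gene and held none of the 6 motifs. The BCL6 letters stood in 4.81% of all promoters and in 1 other of the 9, that of Irf8. The Xbp1 promoter held none of the 6 motifs. A match describes letters only.

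Bach2, the repressor that holds B cells in the germinal center state, had the largest changes of the 7 genes in the 3 comparisons with wt-/mt-. Its leading probe set (1436515_at) read 7.92, 8.03 and 5.83 in wt-/mt-, 11.74, 11.93 and 11.67 in wt-/mt+, 11.12, 10.76 and 11.38 in wt+/mt-, and 11.79, 11.66 and 11.57 in wt+/mt+. The wt-/mt- arrays lay far below all others, with replicate 3 lowest, below the median of its array. Wt+/mt- came next in order and did not overlap wt-/mt+ or wt+/mt+, which overlapped each other. Of all probe sets, 10.8% lay lower without overlap in wt+/mt- than in wt+/mt+. In wt-/mt+ against wt+/mt-, 12% lay higher without overlap. Both comparisons cross the spike-in division, and the lower wt+/mt- arrays (11.12 and 10.76) were those of high actin values. After loss of both alleles Bach2 fell by 4.41 (log2 change, SE 0.37, limma adjusted p = 3.99e-05), the 6th lowest log2 change among 18193 genes. Against wt-/mt+ the change was -4.52 (SE 0.37, adjusted p = 3.31e-05), and against wt+/mt- it was -3.82 (SE 0.39, adjusted p = 0.000393). These comparisons share the wt-/mt- arrays. The change in wt+/mt- against wt+/mt+ was -0.59 (SE 0.27, adjusted p = 0.211) and that in wt-/mt+ against wt+/mt+ was 0.11 (SE 0.24, adjusted p = 0.913), with a 95% interval of -0.41 to 0.62.

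The second Bach2 probe set (1437667_a_at) read 6.85, 7.58 and 5.35 in wt-/mt-, against 11.15, 11.01 and 11.08 in wt+/mt+, a fall of 22.4-fold (log2 change -4.49, SE 0.40, limma adjusted p = 5.41e-05). The third (1445460_at) was dimmer and moved less. It read 6.95, 6.67 and 6.88 in wt-/mt-, 7.98, 7.96 and 7.87 in wt-/mt+, 7.39, 7.37 and 7.64 in wt+/mt-, and 7.63, 7.63 and 7.76 in wt+/mt+. Here wt-/mt+ lay highest and wt-/mt- lowest, with no overlap of either with another genotype. Taken pair by pair, 9.33% to 13.1% of all probe sets lay apart in the same direction. The third probe set fell after loss of both alleles by 0.84 (SE 0.13, adjusted p = 0.00261). It was also higher in wt-/mt+ than in wt+/mt- (0.47, SE 0.09, adjusted p = 0.0263), 1 of 2 probe sets called there, both higher, beside 2.94% of all called and 1.3% called higher. With both wt+/mt- arrays of high actin values left out, 1 array stood for that genotype, its spread taken from the other groups, and the difference was 0.30 (adjusted p = 0.56). The first and second probe sets correlated at r = 0.99 over the 12 arrays, and the third with them at 0.89 and 0.88.

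The interaction, the change after both losses beyond the sum of the changes after each loss alone, was called for all 3 Bach2 probe sets and for 0 of the other 15, beside 1.56% of all probe sets (1.18% lower). It was -3.93 for the leading one (SE 0.45, limma adjusted p = 0.0014), -3.85 for the second (SE 0.49, adjusted p = 0.0025) and -0.90 for the third (SE 0.16, adjusted p = 0.0153). The sum of the single losses was thus far smaller in size than the change after both. On chromosome 4, where Bach2 lies, the median of 702 genes in wt-/mt- was 0.09, 0.05 and 0.03 above the wt+/mt+ mean. The nearest measured genes on either side, Map3k7 and Gja10, changed by -0.09 (SE 0.17, adjusted p = 0.802) and 0.02 (SE 0.16, adjusted p = 0.955). Of the 3 measured genes on each side, 1 was called, Manea, second before Bach2 (-1.09, SE 0.15, adjusted p = 0.00149). In bulk RNA, fewer cells expressing a gene and less RNA per cell cannot be told apart, here and below.

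**Figure D2:**
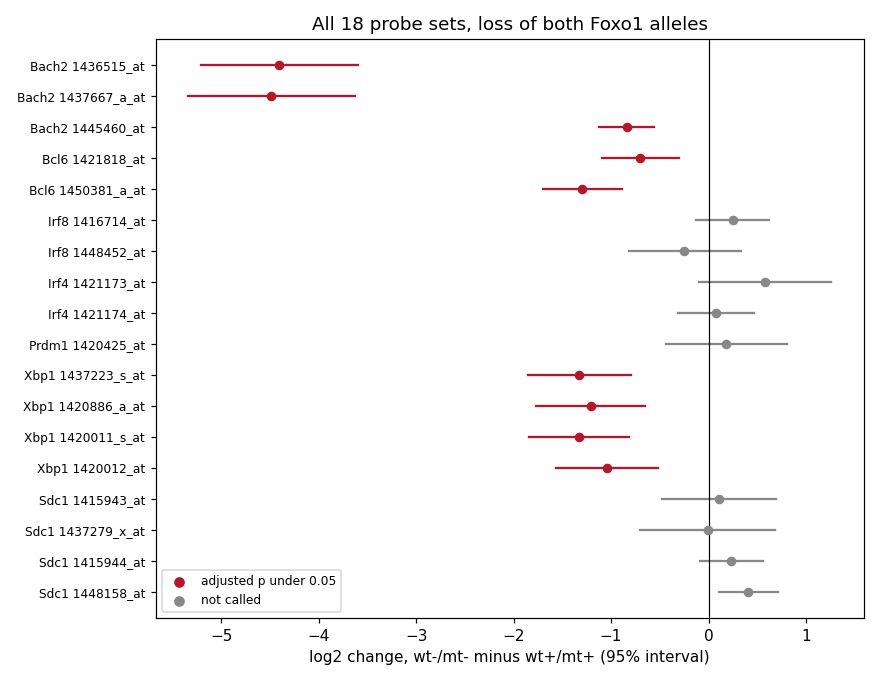
Log2 change in wt-/mt- minus wt+/mt+ (horizontal axis) for the 18 probe sets, with 95% intervals from limma. The 9 called probe sets, those of Bach2, Bcl6 and Xbp1, lie below 0, with 2 Bach2 probe sets at -4.41 and -4.49, and the 9 of Irf8, Irf4, Prdm1 and Sdc1 were not called.

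Bcl6, the master repressor of the germinal center, fell less, and its probe sets differed. The leading one (1421818_at) read 13.21, 12.53 and 12.26 in wt-/mt-, 13.34, 13.49 and 13.55 in wt-/mt+, 13.45, 13.34 and 13.22 in wt+/mt-, and 13.33, 13.48 and 13.27 in wt+/mt+. The wt-/mt- arrays were the lowest, replicate 1 by only a little, and the other genotypes overlapped. The change after loss of both alleles was -0.70 (SE 0.18, limma adjusted p = 0.0388), and that against wt-/mt+ was -0.79 (SE 0.18, adjusted p = 0.0222). In 3 of 20 alternatives the second of these calls was lost. Against wt+/mt-, on the same side of the spike-in division, neither Bcl6 probe set was called (-0.67, adjusted p = 0.0869, and -0.63, adjusted p = 0.116). The call against wt+/mt+ ended in 10 of 20 alternatives, among them the set without wt-/mt- replicate 3 (-0.49, adjusted p = 0.177), and lay between -0.97 and -0.49.

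The second Bcl6 probe set (1450381_a_at) read 8.78, 8.22 and 7.86 in wt-/mt-, 9.46, 9.87 and 9.69 in wt-/mt+, 8.86, 8.96 and 8.94 in wt+/mt-, and 9.55, 9.59 and 9.62 in wt+/mt+. Both genotypes without the T24P allele lay below both genotypes with it, with no overlap, along the same line as the spike-ins. Taken pair by pair, 10.8% to 13.1% of all probe sets lay lower without overlap. Loss of both alleles changed the second Bcl6 probe set by -1.30 (SE 0.19, adjusted p = 0.00183 by limma). In wt+/mt- it fell by 0.67 against wt+/mt+ (SE 0.13, adjusted p = 0.0251), the 1 of 18 probe sets called there, beside 3.91% of all probe sets (1.26% lower), and in wt-/mt+ it was higher than in wt+/mt- by 0.75 (SE 0.13, adjusted p = 0.0203). The leading probe set gave -0.02 and 0.12 for these comparisons (adjusted p = 0.931 and 0.628). Both calls of the second probe set ended without array weights (adjusted p = 0.114 and 0.119) and with the actin covariate (adjusted p = 0.0886 and 0.144). With 1 wt+/mt- array left, that of low actin value, the differences were -0.65 and 0.74. The spike-ins divide the arrays compared here too, so technical handling and genotype cannot be told apart in them. On chromosome 16, where Bcl6 lies, the median of 362 genes stood at 0.04, 0.09 and 0.34 in wt-/mt-, highest in replicate 3, the array with the lowest Bcl6.

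**Figure D3:**
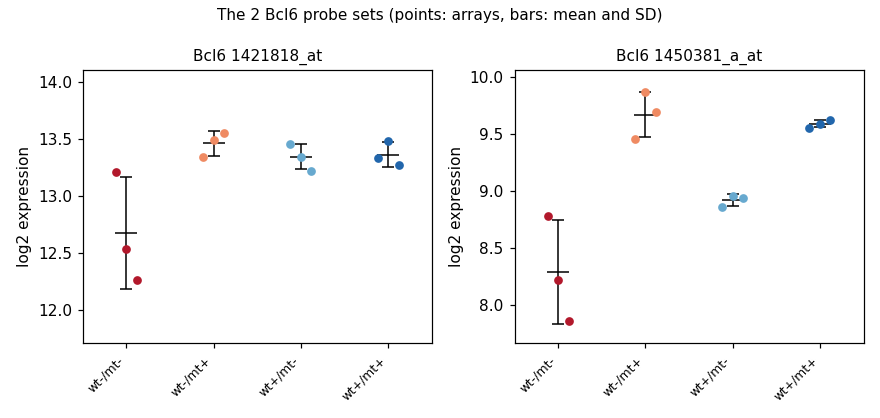
Log2 expression of the 2 Bcl6 probe sets (vertical axes of equal span) in the 4 genotypes, with a point per array and bars for the mean and SD. The leading probe set is lowest in wt-/mt-, whose highest array (13.21) nearly reaches the lowest wt+/mt- array (13.22). The dimmer one, at 8.86 to 8.96 in wt+/mt- and 9.55 to 9.62 in wt+/mt+, separates both mt- genotypes from the mt+ genotypes.

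Irf8, an interferon regulatory factor that germinal center B cells express at high level, showed no called change. Its leading probe set (1416714_at) read 11.22, 12.07 and 11.34 in wt-/mt-, 11.05, 11.04 and 10.85 in wt-/mt+, 11.31, 11.10 and 11.18 in wt+/mt-, and 11.27, 11.37 and 11.25 in wt+/mt+. Only wt-/mt- replicate 2 stood apart, and the wt-/mt+ arrays lay lowest. Against wt+/mt+, the wt-/mt- mean differed by 0.25 (SE 0.17, limma adjusted p = 0.413), and it was -0.02 without wt-/mt- replicate 2. On that array the median of 638 genes on chromosome 8, which holds Irf8, was 0.19, against -0.27 in replicate 3 and 0.05 in replicate 1. In wt-/mt+ against wt+/mt+ the leading probe set changed by -0.32 (SE 0.11, adjusted p = 0.425) and the second (1448452_at) by -0.43 (SE 0.17, adjusted p = 0.459), with no overlap between the arrays in either, as for 5.91% of all probe sets in that direction (0.0222% were called lower). For both probe sets of Irf8 together, r was 0.61 over the 12 arrays.

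Irf4, the paralogous factor that rises toward the plasma cell, read 9.42, 8.85 and 10.72 in wt-/mt-, 9.14, 9.22 and 9.24 in wt-/mt+, 8.85, 9.51 and 9.43 in wt+/mt-, and 8.95, 9.12 and 9.17 in wt+/mt+ by its leading probe set (1421173_at). All genotypes overlapped, and wt-/mt- replicate 3 was the highest array. The change after loss of both alleles was 0.58 (SE 0.31, limma adjusted p = 0.278), with a 95% interval of -0.10 to 1.26, and it was 0.05 without wt-/mt- replicate 3. The second probe set (1421174_at), close to the array median, read 6.45, 6.34 and 6.59 in wt-/mt- and 6.19, 6.38 and 6.59 in wt+/mt+, so the high reading of replicate 3 was not found there. It read 6.44, 6.59 and 6.39 in wt-/mt+ and 6.83, 7.05 and 6.60 in wt+/mt-. The wt+/mt- mean was the highest and was not called against wt+/mt+ (0.44, SE 0.13, limma adjusted p = 0.07). The probe sets correlated at r = 0.25.

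Prdm1 was read by 1 probe set (1420425_at), which lay below the array median on all 12 arrays and was the 1 of 18 that would not pass a filter on dim probe sets. It read 5.07, 4.79 and 5.00 in wt-/mt-, 4.65, 4.45 and 4.57 in wt-/mt+, 4.52, 4.24 and 4.48 in wt+/mt-, and 5.36, 4.52 and 4.43 in wt+/mt+. The 3 wt-/mt- arrays lay above the wt-/mt+ and wt+/mt- arrays, as for 16.3% and 9.05% of all probe sets, but the highest array was wt+/mt+ replicate 1. In wt-/mt- minus wt+/mt+ Prdm1 changed by 0.18 (SE 0.29, limma adjusted p = 0.743, 95% interval -0.44 to 0.81), and 0.48 without wt+/mt+ replicate 1 (adjusted p = 0.0521). Its place on the array was between the 22nd and 27.2nd percentile in wt-/mt- and between the 15th and 36.3rd in wt+/mt+. RMA gives no detection call, and a small change of so dim a probe set may not be measurable.

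Xbp1, the factor behind the secretory apparatus of plasma cells, fell. Its leading probe set (1437223_s_at) read 11.47, 12.74 and 12.16 in wt-/mt-, 13.57, 13.35 and 13.61 in wt-/mt+, 13.00, 13.15 and 13.59 in wt+/mt-, and 13.37, 13.49 and 13.49 in wt+/mt+. The wt-/mt- arrays were below all others, and the other 3 genotypes overlapped. The change was -1.33 against wt+/mt+ (SE 0.24, limma adjusted p = 0.00695), -1.39 against wt-/mt+ (SE 0.24, adjusted p = 0.00491) and -1.12 against wt+/mt- (SE 0.25, adjusted p = 0.0347). All 4 probe sets were called lower in wt-/mt- against wt+/mt+, with changes between -1.33 and -1.04, and all 4 against wt-/mt+, between -1.41 and -1.33. Against wt+/mt-, 2 of 4 were called, and the leading call ended in 7 of 20 alternatives, for example without wt-/mt- replicate 1 (-0.80, adjusted p = 0.162). The interaction of the leading probe set was -1.18 (SE 0.30, adjusted p = 0.077) and not called. These probe sets do not separate spliced Xbp1 mRNA, which encodes the active factor, from the unspliced form. The median of 972 genes on chromosome 11, which holds Xbp1, was 0.09, 0.19 and 0.06 in wt-/mt-, above 0 on all 3 arrays.

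Sdc1, the plasma cell surface marker, was read by 4 probe sets, 0 of which were called in any of the 6 pairwise comparisons (limma), where 3 of 24 tests had an unadjusted p under 0.05, against 9.86% to 24.2% of all probe sets per comparison. The leading one (1415943_at) read 7.04, 8.47 and 7.91 in wt-/mt-, 7.91, 7.57 and 7.89 in wt-/mt+, 7.37, 8.00 and 7.86 in wt+/mt-, and 7.67, 7.72 and 7.71 in wt+/mt+. The wt-/mt- arrays spanned the range of all others. The change after loss of both alleles was 0.11 (SE 0.27, limma adjusted p = 0.849, 95% interval -0.48 to 0.69), and -0.23 without wt-/mt- replicate 2. Replicate 1, the lowest, also had the lowest median of 414 genes on chromosome 12, which holds Sdc1, at -0.66, against 0.03 and -0.04 in replicates 2 and 3. The dimmest probe set (1448158_at) read 6.32, 6.35 and 6.49 in wt-/mt- and 5.93, 6.04 and 5.96 in wt+/mt+, without overlap and not called (0.41, SE 0.14, adjusted p = 0.0921). Of all probe sets, 20.6% lay higher without overlap in that comparison. This Sdc1 probe set did not follow the leading one over the arrays (r = 0.15).

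The 3 wt-/mt- arrays did not move together across the genes. Relative to the wt+/mt+ mean, replicate 3 had the lowest Bach2 (-5.84) and Bcl6 (-1.10) and the highest Irf4 (1.64), while replicate 1 had the lowest Xbp1 (-1.98) and Sdc1 (-0.66) and replicate 2 the highest Irf8 (0.78) and Sdc1 (0.77). The least changed of the 3 arrays stood at -3.64 for Bach2 and -0.71 for Xbp1. For Prdm1, replicate 3 stood at 0.23.

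**Figure D4:**
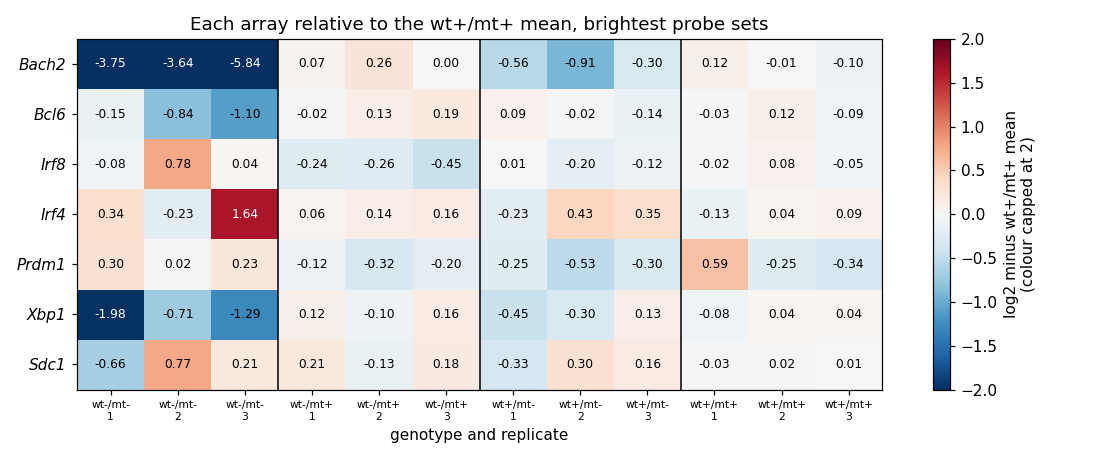
Log2 level of the leading probe set of each gene (rows) on each array (columns, by genotype and replicate) minus its wt+/mt+ mean, with the value printed and the colour capped at 2. Bach2 and Xbp1 are low on all 3 wt-/mt- arrays, whereas Irf4 is highest on replicate 3 (1.64) and Irf8 on replicate 2 (0.78).

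Among the genes above the array median on at least 3 arrays, those whose leading probe set was most like Bach2 over the 12 arrays were H2-Ob (Pearson r = 0.995), Trp53inp1 (0.994) and 1810010H24Rik (0.991). With the genotype means taken out, their r was 0.958, 0.955 and 0.924. For Xbp1 they were Mat2b (0.979), Rpe (0.974) and Ttc7b (0.965), and for Bcl6 Lsm14a (0.991), Rab3a (0.973) and Pitpnc1 (0.970). For Irf4 they were Snx15 (0.960), Tomm34 (0.937) and Trim65 (0.936), and for Irf8 Pml (0.944), Cmas (0.931) and 3000002C10Rik (0.925). Sdc1 was most like Bag2 (0.920), Pyurf (0.910) and S100a4 (0.885), and Prdm1 like Heatr3 (0.875), Chd1 (0.860) and Ms4a7 (0.827). These are descriptions over 12 arrays that share 4 genotypes, and the spread of the wt-/mt- arrays weighs heavily in them.

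Genes linked to the 7 factors were read by the leading probe set of each gene. Changes of these lists are against wt+/mt+ unless another genotype is named, and that comparison crosses the spike-in division. Of 18193 leading probe sets, 4.31% were called higher and 4.29% lower in wt-/mt- against wt+/mt+, with a median change of 0.07. Against wt+/mt-, the shares are over all 45037 probe sets, not genes: 2.88% were called and 1.99% were called lower. Replicates 1 and 2 of wt+/mt- had high actin values. With the actin covariate, 500 probe sets were called against wt+/mt- rather than 1295. Of 18 plasma cell genes measured, 2 rose and 4 fell (median 0.10). Slamf7, a receptor on plasma cells, fell by 2.40 (SE 0.66, limma adjusted p = 0.0455), Eaf2 by 2.40 (SE 0.35, adjusted p = 0.00204) and Tram2 had a change of -1.93 (SE 0.22, adjusted p = 0.000491), while Txndc5, a protein disulfide isomerase, rose by 1.11 (SE 0.19, adjusted p = 0.00543). Against wt+/mt-, 1 of the 18 rose and 2 fell, Eaf2 and Tram2. Slamf7 (-0.89, limma adjusted p = 0.69) and Txndc5 (0.73, limma adjusted p = 0.0808) were not called there. Jchain, the joining chain of polymeric antibodies, averaged 13.22 ± 0.98 in wt-/mt- and 14.33 ± 0.06 in wt+/mt+ (SD, n = 3 each) and was not called (adjusted p = 0.137 by limma). Of 25 targets of XBP1 and genes of the unfolded protein response, 0 rose and 1 fell (median 0.06), the co-chaperone Dnajc3 by 0.77 (SE 0.18, adjusted p = 0.0226). Against wt+/mt-, none of the 25 was called (median 0.32).

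Among 11 genes listed as repressed by BACH2, 2 rose and 0 fell (median 0.52). Against wt-/mt+, 1 rose and 0 fell (median 0.44), and against wt+/mt- 0 of 11 were called by limma (median 0.23). The 2 against wt+/mt+ were the thioredoxin reductase Txnrd1 (1.22, SE 0.26, limma adjusted p = 0.0139) and Gclm, a subunit of the enzyme of glutathione synthesis (0.64, SE 0.16, adjusted p = 0.0335). Hmox1, which encodes heme oxygenase, averaged 10.46 ± 0.66 in wt-/mt- and 9.71 ± 0.22 in wt+/mt+ (SD, n = 3 each), with a limma adjusted p = 0.0895. Of 15 genes repressed by BCL6, 2 rose and 1 fell (median 0.21). Id2, an inhibitor of E proteins, rose by 2.06 (SE 0.49, adjusted p = 0.0249) and the chemokine Cxcl10 by 1.41 (SE 0.38, adjusted p = 0.0431), and the receptor S1pr1 fell by 1.49 (SE 0.26, adjusted p = 0.0051). Cxcl10 was dim, above the array median on 2 of 12 arrays. The SD among wt-/mt- arrays was 1.44 for Id2 and 1.31 for Cxcl10. Against wt+/mt-, 0 rose and 1 fell, S1pr1 (-1.76, limma adjusted p = 0.00471). Id2 (1.17, limma adjusted p = 0.292) and Cxcl10 (1.23, limma adjusted p = 0.137) were not called there. Of 9 genes repressed by Blimp-1, 0 rose and 2 fell (median -0.30), Cd79b by 0.96 and Cd22 by 0.84. Against wt+/mt-, 0 of the 9 rose and 1 fell, Cd22 (-1.05, limma adjusted p = 0.0317).

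Of 22 B cell and germinal center genes, 3 rose and 4 fell (median -0.32). Mef2b, a factor upstream of Bcl6, rose by 2.16 (SE 0.30, limma adjusted p = 0.00138), and the adaptor Lmo2 by 1.35 (SE 0.38, adjusted p = 0.0488), while Foxp1 fell by 1.32 (SE 0.21, adjusted p = 0.00311) and Mybl1 by 2.08 (SE 0.56, adjusted p = 0.0431). Against wt+/mt-, 2 of the 22 rose and 1 fell. Mef2b was called there (2.20, limma adjusted p = 0.00316), but Lmo2, Foxp1 and Mybl1 were not (limma adjusted p = 0.216, 0.0576 and 0.293). Of 14 partners and corepressors of BACH2 and BCL6, 1 fell, the deacetylase Hdac5 (-1.17, SE 0.22, adjusted p = 0.00824), and of 14 IRF partners and family members 1 fell, Irf2 (-0.75, SE 0.16, adjusted p = 0.0132). Hdac5 was also called against wt+/mt- (-1.35, limma adjusted p = 0.00863), and Irf2 was not (-0.63, limma adjusted p = 0.0588). Of the 6 genes listed as plasma cell markers, 0 rose and 2 fell. Their mean level was 8.31 to 8.70 in wt-/mt-, 8.33 to 8.98 in wt+/mt-, 9.02 to 9.30 in wt-/mt+ and 9.05 to 9.14 in wt+/mt+. The wt-/mt- and wt+/mt- arrays thus overlapped, below both mt+ genotypes, and against wt+/mt- 0 of the 6 were called. Of 7 myeloid markers 0 were called (limma), and their mean level was 5.76 to 5.90 in wt-/mt- and 5.72 to 5.78 in wt+/mt+, with Csf1r and Adgre1 above the array median on all 12 arrays, Csf3r on 1, and Itgam, Lyz2, Cd14 and Mpo on 0. Of 6 T cell, 4 NK cell, 5 stromal and 3 erythroid markers 0 were called.

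**Figure D5:**
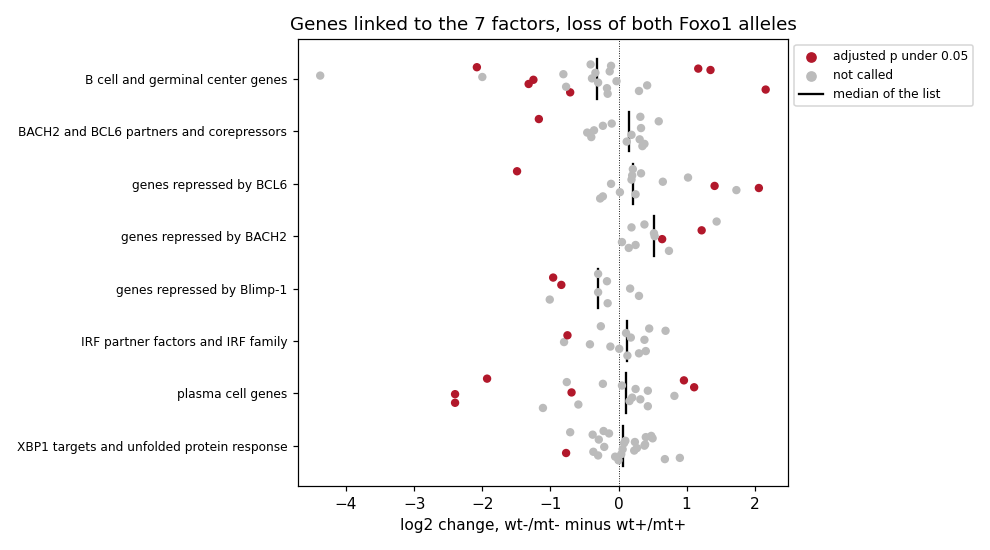
Log2 change in wt-/mt- minus wt+/mt+ (horizontal axis) of each measured gene of 8 lists (rows), in red where called, with a black line at the median of the list. The plasma cell genes hold 2 called rises and 4 called falls, and the XBP1 list holds 1 called fall and a median of 0.06.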

How the data were processed

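The authors deposited log2 expression values for each probe set. The submitters' processing notes name RMA, which removes background, equalizes the arrays and combines probes, and its version is not given in the sources used here. RNA was labelled with a 3' IVT kit, per the labels. Base 2 follows from RMA's habit and the range of 3.09 to 15.57.

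Gene names came from GEO's annotation of the platform, updated through RefSeq (GRCm38.p6): of 45101, 34958 had 1 gene, 932 several and 9211 none, and 64 control probe sets were left out. A fit in R 4.3.3 with limma 3.58.1 held 1 mean and 1 array weight per genotype over all 12 arrays, with no filter on low values. The unweighted fit, other scalings, filters, the actin covariate and sets without arrays were alternatives. Tested on simulated data, the fit made more false calls where each probe set kept its own spread in each genotype than where spread was pooled. With 3 arrays against 3, an exact permutation test cannot go below 0.1, so none was used.

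Named genes were the 7 genes, Foxo1, the 3 genes most correlated with each, and up to 4 called genes per list by size of change. Jchain, Hmox1, the myeloid markers and the neighbours of Bach2 were named outside this rule, after their values were seen. Members and lists were chosen with earlier results of these data known. Replicates 1 to 3 follow the order of the samples and pair nothing. Precision is limited by the 3 arrays per genotype.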

Additional observations from a re-analysis of the deposited data

Results flagged for a closer look

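The change in Bach2 with loss of 1 Foxo1 allele differed between the genotypes with and without the other allele, by the called interaction. Each genotype may be 1 clone, so clone and allele state cannot be told apart. The interaction of the leading probe set (1436515_at) was -3.93, that of the second (1437667_a_at) was -3.85 and that of the third (1445460_at) was -0.90 (limma adjusted p = 0.0014, 0.0025 and 0.0153). With the T24P allele lost, the leading probe set changed by -4.52 in cells lacking wild-type Foxo1, and by -0.59 in cells that kept it. Both of these comparisons cross the spike-in division. On 1 side of it, loss of the wild-type allele gave -3.82 in cells lacking T24P and 0.11 in cells that kept T24P. Over 20 alternatives the interaction of the leading probe set stayed between -4.31 and -3.21, with adjusted p between 0.000155 and 0.0161.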

How the results depend on the processing

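The falls of the first 2 Bach2 probe sets in all comparisons with wt-/mt-, and of the leading Xbp1 probe set against wt+/mt+ and wt-/mt+, kept their direction and call in every alternative run (Bach2 against wt+/mt+ between -4.79 and -3.69 by the leading probe set). Among the other Xbp1 probe sets, the fall against wt+/mt+ lost its call in 4 of 19 alternatives for 1420012_at and in 2 of 19 for 1420886_a_at, and that of the third Bach2 probe set against wt+/mt- in 6 of 19. Member probe sets called numbered 9 against wt+/mt+, 10 without array weights, 11 with arrays centred per chromosome, and 2 of 6 with 1 probe set per gene. Against wt-/mt+ there were 9, 10 with arrays centred per chromosome, and 3 of 6 with 1 probe set per gene. Bach2, Bcl6 and Xbp1 hold 9 probe sets, so the counts of 10 and 11 include probe sets of Irf8, Irf4, Prdm1 or Sdc1. The leading probe sets of these last genes stayed uncalled against wt+/mt+ in every alternative that held them. Against wt+/mt- there were 5, 3 among probe sets above the array median, 2 of 6 with 1 per gene and 3 without both wt+/mt- arrays with a high actin value, which leaves 1 array of that genotype, assumed to vary like the other groups. In wt+/mt- against wt+/mt+ there was 1, 2 among the brighter probe sets and 0 without array weights, with 1 per gene, with the actin covariate or without both arrays. In wt-/mt+ against wt+/mt- there were 2, and 0 without array weights, with 1 per gene, with the actin covariate or without both arrays. The interaction had 3, 1 with 1 per gene and 7 with the actin covariate. Without 1 array at a time, in the order given here, the counts were 6 to 9, 8 to 9, 2 to 5, 0 to 3, 0 to 3 and 3 to 6, and 0 in wt-/mt+ against wt+/mt+. Without wt-/mt- replicate 2, the leading probe sets of Irf8 and Sdc1 turned to -0.02 and -0.23 against wt+/mt+ (adjusted p = 0.97 and 0.717), neither called in either setting. Without 1 array at a time they ran between -0.02 and 0.41, and between -0.23 and 0.49. Over all probe sets, 3349 were called in wt-/mt- against wt+/mt+, but 6381 without array weights and 1625 without wt+/mt+ replicate 2, and in wt+/mt- against wt+/mt+ 1759, but 221 without array weights, 233 with the actin covariate and 23 without wt+/mt- replicate 2. Beyond the smaller sets of probe sets or arrays, the cause was not tested. No paired analysis was possible because the labels give the genotypes no shared replicate numbers.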
